A study of Mus musculus with 8 samples.

Results

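The genes described here encode 10 components of focal adhesions and their integrin receptors: Itgb1, Itga6, Tln1, Fermt2, Ilk, Lims1, Parva, Vcl, Zyx and Pxn. They were read from 17 array probes that carry these gene names, out of 55681 probes and 22531 named genes on the array. Each array held the amplified cDNA of a single myocardial cell from the heart tube of a mouse embryo at embryonic day 8.5, the stage with 9 somites. There were 4 WT cells (Mesp1+/+, Sox17flox/flox) and 4 KO cells (Mesp1Cre/+, Sox17flox/flox). Both genotypes thus carried floxed Sox17, and the KO cells differed from the WT cells in the Mesp1Cre allele as well as in the deletion that Cre, active in early mesoderm, brings about. Sox17 encodes an HMG-box factor of the endoderm and of endothelial precursors, and the comparison asks how myocardial transcripts differ when it is deleted in the mesoderm.

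Integrins are receptors of paired alpha and beta chains that hold cells to laminin, fibronectin and other matrix proteins. Talin and kindlin bind the short tail of the beta chain and switch the receptor on, and a complex of integrin-linked kinase, PINCH and parvin sits beside them. Vinculin, zyxin and paxillin then tie this assembly to actin filaments and to signalling proteins. In heart muscle the same proteins form the costameres that fasten sarcomeres to the cell membrane, and cardiomyocytes depend on them to bear the force of contraction.

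The labels named no embryo for any cell, so each genotype was treated as 1 sample of cells. No test was made, and the SD given below is the spread between 4 cells. The 4 WT arrays shared 1 slide and the 4 KO arrays a different one, and the effects of slide and genotype cannot be told apart. Signals are Agilent intensities scaled between arrays in arbitrary units. Detected means that the software marked the probe's signal in that cell as well above background. Before log2 values were taken, signals under 50 were set to 50, which is 5.64 on the log2 scale. Where 4 values follow each other they belong to cells 1 to 4 of a genotype, in that order. Signals were compared between cells for the same probe. Different probes were ranked by signal only to choose the probe of a gene and the brightest genes of a list.

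The share of all named genes detected was 23.2% to 32.6% in the WT cells and 20.1% to 29.1% in the KO cells. All 10 myocardial marker genes, such as Tnnt2 and Nkx2-5, were detected in each of the 8 cells. Of 10 endothelial markers, 3 or 4 were detected in a WT cell and 2 or 3 in a KO cell, and Cdh5, Tek, Emcn, Erg, Sox18 and Nfatc1 were detected in 0 cells. Their summed floored signal was 975 to 1143 per WT cell and 898 to 1116 per KO cell. At most 2 epicardial and mesenchymal markers of 6 and 1 erythroid, endoderm or neural crest marker were detected in any cell. Sox17, read by 2 probes, and Mesp1 were detected in 0 of 8 cells, so the arrays did not check the genotype labels. By the rough rule that a count of 0 allows up to 3 at 95% confidence, up to 37.5% of such cells could have a detected probe.

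Transcripts of 9 of the 10 genes were detected in at least 1 cell, and Ilk and Lims1 were detected in all 8. Over all 22531 named genes, 12098 were detected in at least 1 cell, and 2103 by their brightest probe in all 8. Fermt2 and Parva were detected by at least 1 probe in 7 cells, Tln1, Vcl and Zyx in 6, Itgb1 in 4 and Itga6 in 3. Pxn was detected in 0 cells. The number detected in a cell was 5, 7, 7 and 8 of 10 in the WT cells and 8, 8, 3 and 9 in the KO cells. The means were 6.75 ± 1.26 (SD, n = 4) in WT cells and 7 ± 2.71 (SD, n = 4) in KO cells, and the ranges of the genotypes overlapped. KO cell 3, with 3 of these genes, also had the lowest share of all named genes, 20.1%, although KO cell 2 detected 8 with a share of 20.5%. The part of overall detection in the member counts was not tested.

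**Figure D1:**
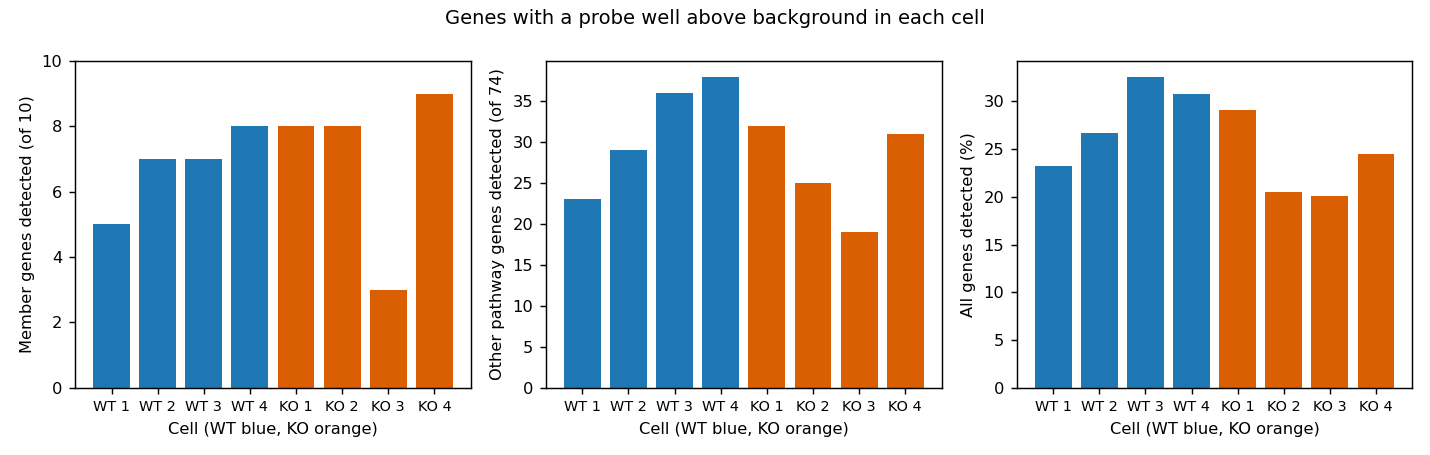
Bars give, for each of the 8 cells (WT blue, KO orange), the number of the 10 member genes with a probe well above background (left), the number of 74 other adhesion genes (middle) and the percent of all named genes (right). KO cell 3 is the lowest bar in each panel, with 3, 19 and 20.1%, while KO cell 4 holds the highest member count, 9.

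For most of these genes detection was patchy from cell to cell. Of the 10 brightest probes of the genes, 6 were detected in 4 to 7 cells, and their median SD of log2 signal was 1.74 over the WT cells and 2.55 over the KO cells. Of 22531 named genes, 3065 had a brightest probe detected in 4 to 7 cells and 10969 one detected in 0 cells. The same medians over the 3065 genes were 2.01 and 2.08. None of the 10 was above the floor in all 8 cells. Only 1159 of 22531 named genes were, so this does not set the 10 apart.

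**Figure D2:**
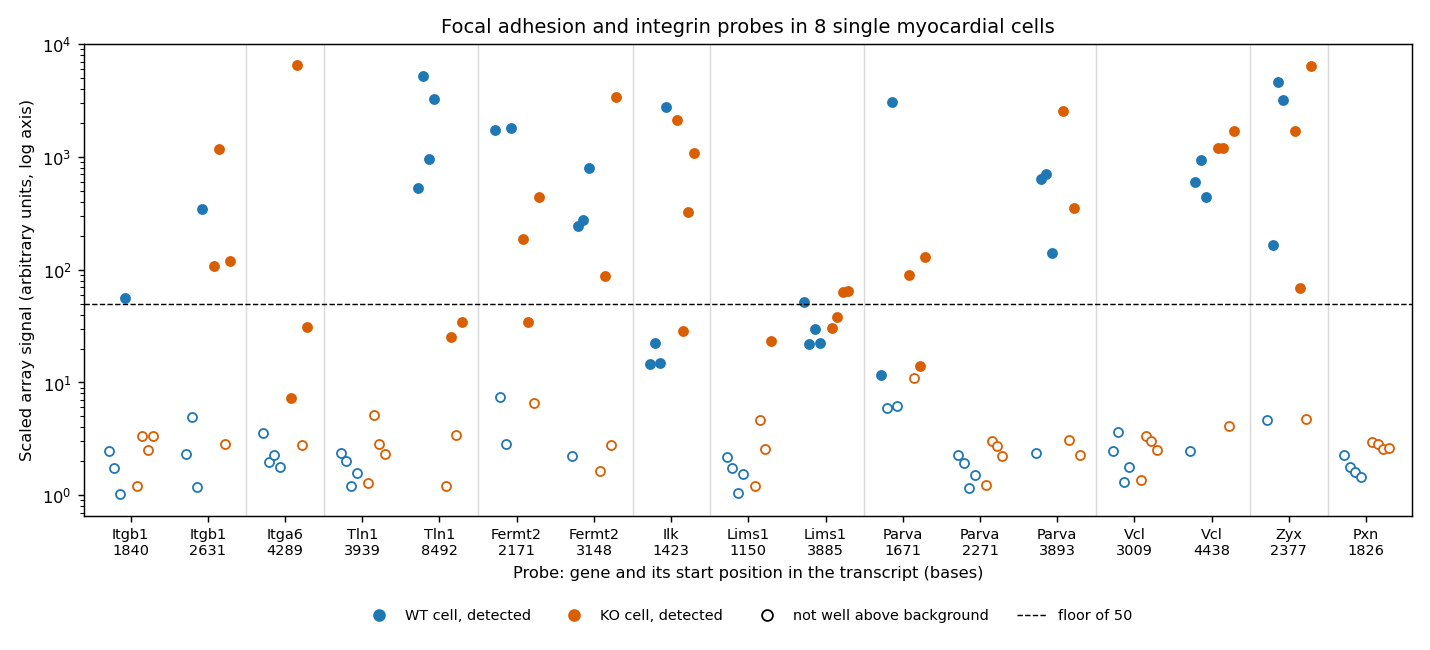
Each point is the scaled signal (log axis, arbitrary units) of 1 of the 17 probes in 1 cell, WT in blue and KO in orange, ordered within a genotype from cell 1 to cell 4. Filled points were well above background, open points were not, and the dashed line marks the floor of 50. For the Tln1 probe at 8492 the 4 WT points sit between 534 and 5219 and the 4 KO points at 34.5 or lower, whereas for Vcl, Zyx, Parva and Fermt2 both genotypes hold filled points above the floor and open points near the bottom.

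Itgb1 encodes the beta1 chain, the partner of most integrin alpha chains. Its probe at base 2631 of the transcript ends in the code for the receptor's tail, and it is shown because both docking motifs for talin and kindlin lie in it. The capitals mark the codons of these 2 NPxY motifs (asparagine, proline, any residue, tyrosine), the one nearer the membrane first:
Itgb1 probe at 2631: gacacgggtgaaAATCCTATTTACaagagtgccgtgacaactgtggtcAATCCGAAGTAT
The files give no genome position for this probe. Its scaled signal was 2.33, 4.93, 1.19 and 344 in the WT cells and 107, 1174, 2.85 and 119 in the KO cells. It was thus detected in 1 WT cell and 3 KO cells, and the genotypes overlapped. The mean log2 signal over the WT cells was 6.34 ± 1.39 (SD, n = 4) and over the KO cells 7.37 ± 1.97 (SD, n = 4), a difference of 1.03 on the log2 scale. Without KO cell 2 the difference was 0.09, without WT cell 4 it was 1.73, over both Itgb1 probes it was 0.50, and with no floor it was 3.29. The other Itgb1 probe, at base 1840 (mm9 chr8:131246349-131246408, plus strand), was detected only in WT cell 4, at 55.7, and lay at 3.36 or lower in the other 7 cells. WT cell 4 was the single cell in which both Itgb1 probes were detected.

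Itga6 encodes the alpha6 chain of laminin receptors. Its probe (mm9 chr2:71694756-71694815, plus strand) gave 3.60, 1.96, 2.26 and 1.77 in the WT cells, none of them well above background, and 7.26, 6485, 2.78 and 30.9 in the KO cells. It was detected in 3 KO cells, of which KO cell 2 alone exceeded the floor. The mean over KO cells was at least 3.37-fold that of WT cells, 7.40 ± 3.51 against 5.64 ± 0 on the log2 scale (SD, n = 4), and without KO cell 2 the floored difference was 0. Without KO cell 3 it was 2.34, just past 5-fold, with detection in each of the other KO cells. By the rule that a count of 0 allows up to 3 at 95% confidence, detection in 0 of 4 WT cells allows up to 75% of such cells. This limit is rough and wider than an exact one at so few cells.

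Tln1 encodes talin 1, which binds the integrin beta tail and links it to actin. Of all 10 genes it alone differed by the factor the study used, at least 5-fold (2.32 on the log2 scale), among genes whose brightest probe was detected in each of the 4 cells of at least 1 genotype. The choice of probe and this detection rule were set here. Only Tln1, Ilk and Lims1 of the 10 met that detection rule. Ilk and Lims1 met it in both genotypes, and Tln1 in the WT cells alone, where it was high. The count was therefore 1 of 3 lower in KO cells, where the share over all 3218 genes that met it was 11.2%, and 0 of 3 higher, where the share was 2.83%. These shares of all genes moved with single cells: the first was 17% without WT cell 1, and the second was 4.74%, 4.97% and 4.34% without KO cells 2, 3 and 4. Tln1 was among the genes the study itself picked as lower on these arrays, so its difference here is not independent evidence.

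The Tln1 probe at base 8492 (mm9 chr4:43544393-43544452, minus strand) gave 534, 5219, 967 and 3253 in the WT cells. In the KO cells it gave 1.20, 25.3, 3.40 and 34.5. It was well above background in every WT cell and in KO cells 2 and 4, but those 2 KO signals were under the floor. The genotypes did not overlap, which was true in this direction of 3.48% of the 3218 genes. Of the 3 members that met the detection rule, 0 had every KO cell above every WT cell, against 2.49% of the 3218 genes. The mean log2 signal was 10.75 ± 1.52 (SD, n = 4) in WT and 5.64 ± 0 in KO cells, a difference of -5.11 (34.4-fold lower) in which the KO side was set wholly by the floor. Leaving out single cells gave -5.67 to -4.57, and the difference was -7.80 without the floor.

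The second Tln1 probe, at base 3939 (mm9 chr4:43557201-43557260, minus strand), was detected in 0 of 8 cells, with signals of 1.21 to 5.12. Averaged over both probes the Tln1 difference was -2.55, past 5-fold. The second probe lay under the floor in every cell and had a difference of 0, so this average is no separate support. The probes are shown because they read different stretches of the same transcript, the bright one over a polyadenylation hexamer (AATAAA, in capitals, within 30 of its 60 bases) and the undetected one far upstream:
Tln1 probe at 8492, 30 bases: aacaggtcagactccAATAAAggtgattct
Tln1 probe at 3939: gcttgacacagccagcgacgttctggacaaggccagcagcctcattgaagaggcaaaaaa
The Tln1 result thus rests on the downstream probe alone.

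Fermt2 encodes kindlin-2, the other activator that binds the beta tail. Its brightest probe, at base 3148 (mm9 chr14:46078502-46078561, minus strand), gave 2.21, 246, 277 and 804 in the WT cells and 1.62, 88.4, 2.77 and 3394 in the KO cells. It was detected in 3 WT and 2 KO cells, with the highest signal of all in KO cell 4. The difference was -0.47 on the log2 scale, between 7.84 ± 1.65 in WT and 7.37 ± 2.93 in KO cells (SD, n = 4), and was under the SD of either genotype. A second probe upstream in the transcript, at base 2171 (mm9 chr14:46079479-46079538, minus strand), gave 1739, 7.42, 2.84 and 1795 in the WT and 188, 34.3, 6.55 and 444 in the KO cells. Its high signals were in WT cells 1 and 4, and its difference was -1.31, also under the SD of the WT cells, 2.97.

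Ilk encodes integrin-linked kinase, which acts mainly as a scaffold that couples the beta tail to parvin and PINCH. Its single probe (mm9 chr7:112891066-112891125, plus strand) was detected in all 8 cells. It gave 14.6, 22.4, 14.9 and 2788 in the WT cells and 2114, 28.4, 328 and 1079.9 in the KO cells. So 1 WT cell and 3 KO cells exceeded the floor, and the highest signal was in a WT cell. The mean over the WT cells was 7.09 ± 2.90 and over the KO cells 8.78 ± 2.37 (SD, n = 4), a difference of 1.69, which is below 5-fold and below the SD of either genotype. Without WT cell 4 the difference was 3.14 and without KO cell 2 it was 2.73, both past 5-fold, as was the difference between the medians of the cells, 3.57. The range over single cells left out was 0.93 to 3.14.

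Lims1 encodes PINCH1, a LIM-domain adaptor that binds integrin-linked kinase. Its brightest probe, at base 3885 (mm9 chr10:57886852-57886911, plus strand), was detected in all 8 cells but stayed close to the floor. The signals were 51.6, 22.0, 29.8 and 22.3 in the WT cells and 30.1, 38.1, 63.2 and 64.4 in the KO cells. They overlapped between genotypes, and the difference of 0.16 was smaller than the SD of the KO cells, 0.20. A probe at base 1150 (mm9 chr10:57884263-57884322, plus strand) was detected in KO cell 4 alone, at 23.4.

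Parva encodes alpha-parvin, the actin-binding member of the same complex. Its brightest probe, at base 3893 (mm9 chr7:119734646-119734705, plus strand), gave 2.35, 632, 704 and 141 in the WT cells and 2538, 3.10, 352 and 2.29 in the KO cells. Cells with high and with background signal were present in both genotypes, and the difference was -0.12 against SDs of 1.83 and 2.71. It turned to 0.69 under quantile normalization and to 0.35 with normexp as well, so no direction can be given. A probe at base 1671 (mm9 chr7:119732424-119732483, plus strand) gave 11.8, 5.95, 3069 and 6.22 in the WT and 89.6, 11, 13.9 and 131 in the KO cells. It was detected in 2 WT and 3 KO cells, and its difference of -0.93 turned on WT cell 3. Another probe between them, at base 2271 (mm9 chr7:119733024-119733083, plus strand), was detected in 0 of 8 cells.

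Vcl encodes vinculin, which binds talin and actin and strengthens the link under load. Its brightest probe, at base 4438 (mm9 chr14:21852105-21852164, plus strand), gave 2.45, 595, 930.4 and 443 in the WT cells and 1211, 1209, 4.12 and 1688 in the KO cells. It was detected in 3 cells of each genotype, with WT cell 1 and KO cell 3 at background, so the genotypes overlapped. The difference over all cells was 0.83, between 8.38 ± 1.88 in WT and 9.21 ± 2.39 in KO cells (SD, n = 4). It was -0.08 without WT cell 1 and 2.02 without KO cell 3, and both stayed below 5-fold. The other Vcl probe, at base 3009, with no position in the files, was detected in 0 cells.

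Zyx encodes zyxin, a LIM protein that gathers at adhesions and stress fibres under tension. Its probe (mm9 chr6:42308334-42308393, plus strand) gave 4.64, 166, 4602 and 3187 in the WT cells and 1698, 68.4, 4.74 and 6425 in the KO cells. It was detected in 3 cells of each genotype over overlapping ranges, and the difference was -0.43 against SDs of 3.20 and 3.46. Pxn encodes paxillin, a scaffold that recruits kinases to adhesions. Its probe (mm9 chr5:116004015-116004074, plus strand) gave 1.44 to 2.25 in WT and 2.58 to 2.96 in KO cells, none of them well above background. For Pxn the arrays give only a bound in each genotype and no fold.

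The genes showed no common direction as a group. The sign of 4 of the small differences turned when single cells were left out, that of Vcl as given above. That of Fermt2 was positive without WT cell 4 or KO cell 1 or 3 (range -1.92 to 0.14), that of Parva without WT cell 2 or 3 or KO cell 2 or 4 (-1.31 to 0.58), and that of Zyx without WT cell 3 or 4 or KO cell 2 or 3 (-1.72 to 0.62). Over the 8 genes whose brightest probe was detected in at least 4 cells, 4 were lower and 4 higher in KO cells, with a median difference of 0.02 and a mean of -0.30 on the log2 scale. The median was -0.46 to 0.93 under other settings, so its sign was not fixed. The corresponding values over 5163 named genes were 0 and -0.33. Without Tln1 the median was 0.16 and the mean 0.39, so the negative mean came from Tln1. The group score, a cell's mean log2 signal over these genes relative to all 8 cells, averaged 0.15 ± 1.35 over the WT cells and -0.15 ± 1.11 over the KO cells (SD, n = 4), and the genotypes overlapped.

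Of the 6 genes with several probes, 2 had 2 probes that were each detected in 5 cells, but not in the same cells. For Fermt2 both probes were detected in 3 cells, the upstream one alone in WT cell 1 and KO cell 1, the downstream one alone in WT cells 2 and 3, and neither in KO cell 3. For Parva, too, the probes at 1671 and 3893 were both detected in 3 cells, each alone in 2 and neither in 1, so that each pair agreed in 4 of 8 cells. Over the array, 223 probe pairs of 189 genes were comparable in that both probes read the same transcript record and each was detected in 4 to 6 cells. Their median agreement was 7 of 8 cells, 43.0% agreed in all 8, and 8.97% agreed in 4 or fewer. Both of these pairs thus lay in that last share, and a call for either gene in a given cell depended on the probe read.

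**Figure D3:**
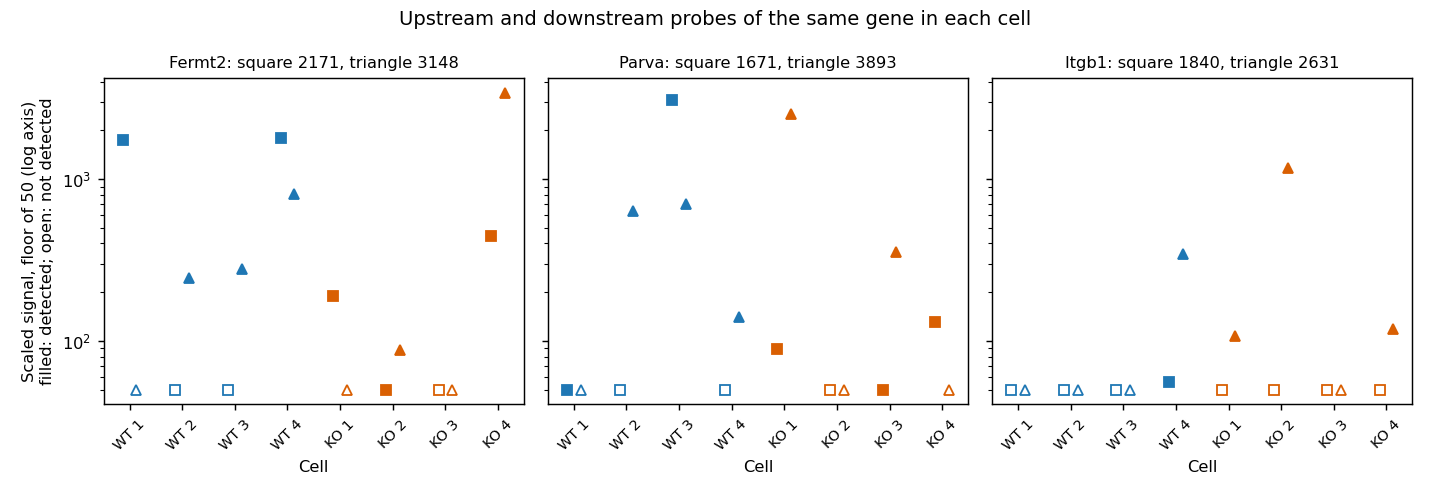
Each panel shows the upstream probe (square) and the downstream probe (triangle) of Fermt2, Parva or Itgb1 in the 8 cells, as scaled signal with a floor of 50 on a log axis, filled where well above background and open where not. Squares and triangles are read for detection and not for relative level, since probes differ in brightness: in Fermt2 WT cell 1 has the square filled and the triangle open, and WT cells 2 and 3 the reverse, while in Itgb1 the square is filled in WT cell 4 only.

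Detection of these genes can also be set against the position of the probe. In the 5 genes with several probes to 1 transcript record, the probe farthest along the transcript was detected in at least 4 cells in 5 of 5 genes, and the 6 probes at other positions in 2 of 6, with 3 of these detected in 0 cells. Over 5074 genes of the array with several positions the shares were alike, 23.2% for the farthest position and 23.7% for the others. A further feature was the hexamer that guides cleavage and addition of the poly(A) tail. AATAAA or ATTAAA, searched on the probe's own strand with a probe that holds both counted once, occurred in 4 of the 17 probes, in 17.8% of the probes of named genes and in 13.7% of all probes of 60 bases. The opposite strand held either hexamer in 0 of the 17, in 6.80% of the probes of named genes and in 6.14% of all probes. Besides the Tln1 probe shown above, these were both Fermt2 probes and the most upstream Parva probe, of which 30 bases around the hexamer (capitals) are given to show where the letters stand in these probes:
Fermt2 probe at 2171, 30 bases: aggaaaacttgtAATAAAactccacagcca
Fermt2 probe at 3148, 30 bases: aataatccatgaATTAAAgactgtataaat
Parva probe at 1671, 30 bases: cctgaacataggAATAAAgatcagaattag
All 4 were detected in at least 4 cells, against 6 of the 13 member probes without a hexamer. The shares over probes of named genes were 28.1% with a hexamer and 19.2% without. A match is a description of the letters and not evidence that a transcript ends there.

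The other genes of the adhesion pathway were read from 4 lists with 74 genes. While 12098 of 22531 named genes were detected in at least 1 cell, 52 of these 74 were. The number detected was 23, 29, 36 and 38 in the WT cells and 32, 25, 19 and 31 in the KO cells, with means of 31.5 ± 6.86 and 26.8 ± 6.02 (SD, n = 4), and it overlapped between genotypes. The mean share of all named genes detected was likewise lower in the KO cells, 23.6 ± 4.19% against 28.3 ± 4.21% in the WT cells (SD, n = 4). By the brightest probes of the 74 genes, 19 met the detection rule. Of these, 5 (26.3%) were at least 5-fold lower in KO cells and 0 higher, beside 11.2% and 2.83% of all such genes. Evl met the rule in both genotypes, but Flna, Vasp, Rap1b and Rhoa met it in the WT cells alone, where they were high. The rule can pass a gene through the genotype where it is high, so the count is no evidence of a direction. The gap to the share of all genes was not steady. Without WT cell 2 the count was 2 of 20 (10%), under the 14.1% of all genes. Without KO cell 3 it was 3 of 22 (13.6%), slightly above 10.4%. Leaving out other single cells gave 15.8% to 36.8% lower, each above the share of all genes, 10.4% to 17%. The share higher reached 10% (2 of 20) without KO cell 2, beside 4.74% of all genes. Over the 29 genes detected in at least 4 cells, 17 were lower and 12 higher. Their median difference was -0.75 and their mean -0.88, beside 0 and -0.33 over 5163 named genes. The score of the 29 genes averaged 0.44 ± 0.38 over the WT cells and -0.44 ± 0.66 over the KO cells (SD, n = 4). Over the 5163 genes it averaged 0.16 ± 0.21 and -0.16 ± 0.18. In the score of the 29 genes the genotypes overlapped, KO cell 1 (0.31) lying above WT cell 1 (0.02) and WT cell 2 (0.26).

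Among 17 other integrin chains, 10 were detected in 0 cells, beside 10433 of 22531 named genes, and 1, Itga5, met the detection rule. Itga5, the alpha chain of the fibronectin receptor, gave 12.9, 2431, 167 and 205 in the WT cells and 846, 6.16, 7.47 and 2315 in the KO cells. Its highest signals were nearly equal in the genotypes, and the difference was 0.06. The integrin chains thus gave no gene past 5-fold in either direction, but only Itga5 could be counted.

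Of 24 other adaptors and actin crosslinkers, 8 met the detection rule. Of these, 3 (37.5%) were at least 5-fold lower in KO cells, beside 11.2% of all genes that met it: Flna, Vasp and Evl. The actin crosslinker filamin A (Flna) gave 9709, 5856, 191 and 7222 in the WT and 1008, 3545, 6.37 and 497 in the KO cells, a difference of -2.45. Vasp and Evl are related promoters of actin filament growth. Vasp gave 1252, 415, 7.84 and 527 in the WT and 173, 9.72, 12.3 and 13.4 in the KO cells, with a difference of -2.33, just past the limit. Evl gave 66.5, 10365, 5529 and 4507 in the WT and 9114, 198, 15.4 and 66.2 in the KO cells, with a difference of -2.87. In all 3 genes the genotypes overlapped. Leaving out single cells took the Flna difference to between -3.77 and -1.30, that of Vasp to between -3.25 and -1.70, and that of Evl to between -4.55 and -2.05, so each lost the 5-fold call without some cells. Flna fell below 5-fold without WT cell 1, 2 or 4 or KO cell 3, Evl without WT cell 2 or KO cell 3 or 4, and Vasp without WT cell 1, 2 or 4 or KO cell 2, 3 or 4. Flna and Vasp also fell below it under quantile normalization, at -2.22 and -1.83, and with normexp as well, at -2.31 and -1.68. The LIM protein Fhl2, with Evl the brightest on this list of those detected in all 8 cells, gave 2939, 15367, 11047 and 6748 in the WT and 9413, 967, 4239.9 and 750.4 in the KO cells, a difference of -1.72 with overlap.

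Of 20 signalling genes, 7 met the detection rule. Of these, 2 (28.6%), the small GTPases Rap1b and Rhoa, were at least 5-fold lower in KO cells, beside 11.2% of all such genes. Rap1b, which promotes talin recruitment to integrins, gave 2927, 9.78, 165 and 1272 in the WT and 1.22, 2.92, 2.64 and 25.6 in the KO cells. The difference was -3.07, and -2.13 without WT cell 1, which is below 5-fold. The Rhoa probe gave 1447, 1553, 790.5 and 2531 in the WT and 11.3, 3.23, 554 and 8.78 in the KO cells. Each WT cell exceeded each KO cell, which was true of 3.48% of the 3218 genes that met the detection rule. The difference of -4.0 stayed past 5-fold without any single cell (-4.86 to -3.71), but Rhoa met the rule in the WT cells alone. The identity of this probe is uncertain: the files place it on chromosome 4 (mm9 chr4:117400755-117400814, minus strand), while the RefSeq table places Rhoa on chromosome 9, the one mismatch among 80 placed probes of these lists. A second Rhoa probe was detected in WT cell 1 alone, and over both probes the difference was -2.02, below 5-fold. The brightest signalling genes detected in all 8 cells, Git2 and Ptk2b, differed by -0.13 and 0.30.

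Of 13 matrix genes, 3 met the detection rule and 0 differed by 5-fold, beside 11.2% lower and 2.83% higher of all such genes. Lama5, a laminin alpha chain, was the one detected in all 8 cells and gave 25.9 to 87.3 in WT cells and 35.8, 41.4, 54.8 and 2009 in KO cells, where KO cell 1 held the highest value. Its difference was 1.16, below the SD of the KO cells, 2.64. A pair of genes outside the naming rule, chosen after their values were seen, were detected in 0 WT cells and in 3 KO cells. Ptk2, which encodes focal adhesion kinase, gave 4549, 13202 and 388 in KO cells 1, 3 and 4, at least 20.8-fold the WT mean, although its 2 other probes were detected in 0 of 8 cells. Itgb1bp2, which encodes the muscle protein melusin that binds the beta1 tail, gave 8746, 161 and 1859.9 in KO cells 1, 2 and 3, at least 12-fold. Neither gene met the detection rule, since neither was detected in all 4 KO cells. With no detection filter they were the 2 of 74 genes (2.7%) at least 5-fold higher in KO cells, beside 0.91% of all genes. The share of all genes detected in 0 WT and 3 KO cells was not counted, so the pair cannot be set against it.

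**Figure D4:**
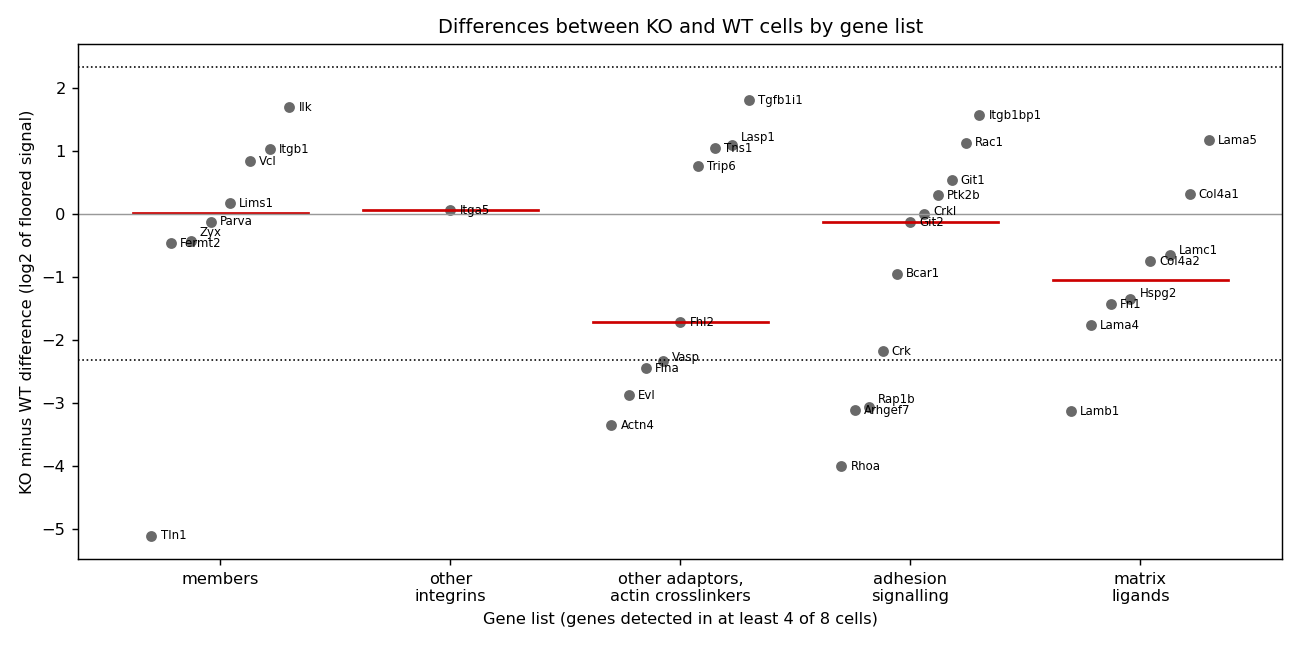
Each point is the KO minus WT difference (log2 of floored signal) of 1 gene by its brightest probe, for the genes of each list detected in at least 4 of 8 cells, with a red line at the list's median and dotted lines at 5-fold. Actn4, Arhgef7 and Lamb1 lie past the lower dotted line but missed detection in 1 or more cells of each genotype and are not counted. Tln1 stands at -5.11 while the other 7 members lie between -0.47 and 1.69.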

How the data were processed

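Each of the 8 arrays (SurePrint G3 Mouse GE, probes of 60 bases) held the amplified, Cy3-labelled cDNA of 1 cell, whose type the authors had identified by PCR of marker genes. The deposited files hold intensity values on a linear scale written by Agilent's Feature Extraction software (12.0.2.2), and the processed signal, corrected for background by that software, was used. The authors' methods name a floor of 50, scaling to the 50th percentile of each chip and a median normalization of each gene, which was not used here. A factor of 5 is the size the study used.

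Control spots and outlier-flagged spots (146 to 220 of 59305 per array, none of a member) were left out, 0 spots were saturated, and spots of a probe were averaged as log2. Arrays were shifted by -0.76 to 0.68 to a common 50th percentile over the 5301 probes well above background in all 8 cells, and values under 50 were then set to 50. A gene was read at its probe of highest mean signal. Gene names of the array were matched to symbols or synonyms of RefSeq (GRCm38.p6, names and chromosomes only), which named 30613 probes, and printed sequences are those of the probe column. Exon and UTR annotation was not used here.

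All 10 members were named. Of the 4 other lists, genes past 5-fold and the 2 brightest detected in all 8 cells were named. Members, lists and the rule were chosen with earlier results of these data known. A bound compares the bright genotype's mean with the higher, on each array of the dim genotype, of the floor and the lowest signal well above background, which was the floor for the bounds given. The number of arrays limits the precision. Groups followed the sample labels. Alternatives changed the scaling, background correction, floor, detection filter, probe choice and size rule, and left out each cell in turn. The calculation was tested on simulated bright probes set as detected in every cell, with less spread between cells than here. That did not test the detection filter or cells at background. Python 3.11.15, pandas 2.3.3 and, for normexp and quantile normalization, limma 3.58.1 in R 4.3.3 were used.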

Additional observations from a re-analysis of the deposited data

Results flagged for a closer look

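In 25 sets of 4 cells of a genotype, 9 held a cell whose distance from the nearest other exceeded Dixon's critical share of the range. Chance alone would give about 1 in 20 sets, but in most of these sets the other 3 cells stood at the floor of 5.64, so that a single cell above it has to stand apart. On the log2 scale the cells high in this way were WT cell 4 for both Itgb1 probes (5.80 at 1840 and 8.43 at 2631) and for Ilk (11.44), and WT cell 1 for Lims1 at 3885 (5.69). WT cell 3 stood out for Parva at 1671 (11.58), KO cell 2 for Itga6 (12.66) and KO cell 4 for Fermt2 at 3148 (11.73). KO cell 3 was low for Vcl at 4438 (5.64, at the floor, where the nearest other KO cell was at 10.24) and in the number of member genes detected, 3 against 8 in the nearest KO cell.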

How the results depend on the processing

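Tln1 was the only member at least 5-fold lower in KO cells under 13 of 14 other settings and without any single cell (1 to 1). The exception required detection in all 8 cells, which left 2 members and gave 0. The setting that averaged all probes of a gene rests for Tln1 on its downstream probe alone. Ilk was 1 member of 3 higher with no floor, with medians of cells and by a 2-fold rule, beside 4.49%, 3.73% and 13% of all genes. Leaving out single cells gave 0 to 1 members higher. It was Ilk, 1 of 3, without WT cell 4 or KO cell 2, beside 3.62% and 4.74% of all genes. Without KO cell 3 it was Itga6, 1 of 7, beside 4.97%, and Itga6 then met the detection rule in the KO cells alone. Member medians were -0.48 to 0.48 without single cells. The WT minus KO detection difference was -1.58 to 0.42, around -0.25 for all cells. The pathway count lower in KO cells, 5 of 19, was 3 of 19 (15.8%) under quantile normalization, beside 9.16% of all genes. With normexp as well it was again 3 of 19, beside 8.36%. It was 3 of 12 (25%) with detection as signal above 50, beside 13.8%, and 1 of 7 (14.3%) for genes detected in all 8 cells, beside 3%. By a 10-fold rule it was 1 of 19 (5.26%) beside 5.25%, and by a 2-fold rule 8 of 19 (42.1%) beside 24.1%. With no filter it was 8 of 74 (10.8%) beside 3.41%. The count higher, 0 of 19, was 1 of 19 (5.26%) with no floor, beside 4.49% of all genes. It was 2 of 30 (6.67%) with detection in 3 of 4 cells, beside 3.07%, and 2 of 74 (2.7%) with no filter, beside 0.91%. By the 2-fold rule it was 5 of 19 (26.3%) beside 13%. The pathway median, -0.75, was -1.68 with no floor, 0.30 for genes detected in all 8 cells and 0 with no filter. Without single cells these ranged from 2 to 7, 0 to 2 and -1.25 to -0.44. The causes were not tested. The median of all genes, 0, was -0.14 with scaling over all probes and 0.15 with normexp. No paired analysis was possible because the labels tie no WT cell to a KO cell and no model was fitted in which a block could change a value (the mean of differences between same-numbered cells equals the difference of means), and same-numbered cells of the genotypes did not deviate together (correlations -0.22 to 0.03 across genes). A slide block could not be fitted, since no slide held both genotypes. Signals at background limit all statements on cells without detection.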
